A study of Mus musculus with 6 samples.

Results

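The genes of prostanoid synthesis, transport, breakdown and reception followed here, in human neuroblastoma tumours grown in mice, were 10 of the 18417 named genes that the arrays measured. They are the cyclooxygenase genes PTGS1 and PTGS2, the prostaglandin E synthase genes PTGES, PTGES2 and PTGES3, the prostacyclin synthase gene PTGIS, the transporter gene SLCO2A1, the dehydrogenase gene HPGD and the receptor genes PTGER2 and PTGER4. The genes were chosen by pathway, and their probe sets were selected on signal: a probe set had to carry exactly 1 gene symbol, and that with the highest mean over the 6 arrays was kept. Each of the 10 genes had 1 such probe set, so this mean decided nothing here. PTGIS and SLCO2A1 were already known from earlier results of these data to stand out in the comparison described, so their differences are given as a description.

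SK-N-BE(2), an established line of human neuroblastoma in which MYCN is amplified, was injected into the adrenal gland. The hosts were NSG mice, which lack T, B and natural killer cells. The BL-8040 group was 3 mice given 400 µg of BL-8040, a peptide inhibitor of the chemokine receptor CXCR4, under the skin from day 7 after injection on 14 consecutive days. The control group was 3 mice with the same tumour cells; the sources used here state neither what they received nor the age of the animals. One array of human probe sets was read per tumour. Every tumour came from this single cell line.

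Prostanoids are short-lived lipid signals. Phospholipases free arachidonic acid from membranes, a cyclooxygenase turns it into prostaglandin H2, and terminal synthases turn that into prostaglandin E2, prostacyclin and related products. Prostaglandin E2 acts on neighbouring cells through receptors such as EP2 and EP4, which raise cyclic AMP, and it is cleared by uptake through a transporter and oxidation inside the cell. Neuroblastoma tumours and cell lines are known to make prostaglandin E2, and cyclooxygenase inhibitors slow the growth of neuroblastoma xenografts.

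Arrays had medians between 5.35 and 5.42 log2 units over all probe sets and correlated with r between 0.992 and 0.997 across genes. The array with the lowest median correlation to the others (0.994) was BL-8040 replicate 3. Of the markers of neuroblastoma cells, 8 of 10 were measured, at a median percentile of 90.8 of signal over all genes, whereas the endothelial and myeloid markers had median percentiles of 28.3 and 25.6. The fibroblast markers were bright too, at a median percentile of 92.2. No marker is listed at 0, since the dimmest probe sets of such arrays still give a positive log2 value. In RNA from whole tumours, fewer cells of a type and less RNA per cell cannot be told apart.

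The signal of the prostacyclin synthase gene PTGIS was lower in every BL-8040 tumour than in any control, at 0.583 times the control mean, and that of the prostaglandin transporter gene SLCO2A1 was higher, at 1.59 times. The inducible cyclooxygenase gene PTGS2 stood at 0.743 times with overlapping groups, and the other 7 genes differed by less than 0.2 log2 units. No gene of the pathway passed the test: limma with Benjamini-Hochberg adjustment called 0 of 18417 genes (0%) at an adjusted p under 0.05, where the lowest value was 0.644. At an unadjusted p under 0.05 stood 2 of the 10 genes, PTGIS lower and SLCO2A1 higher, against 7.72% of all genes (2.64% higher and 5.08% lower). The split of these over all genes leaned to the lower side in the values as deposited, with 487 higher and 935 lower, and was 713 higher and 677 lower after quantile normalization and 668 higher and 690 lower after median centring. The same 2 genes had groups that did not overlap, which 14.0% of all genes did (4.93% higher and 9.05% lower). As PTGIS and SLCO2A1 were known beforehand, nothing is read from these counts. Of the 10 genes, 5 stood higher and 5 lower in treated tumours, and the median of their differences was 0.01 log2 units, beside -0.02 over all genes, of which 41.5% stood higher and 58.5% lower.

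**Figure D1:**
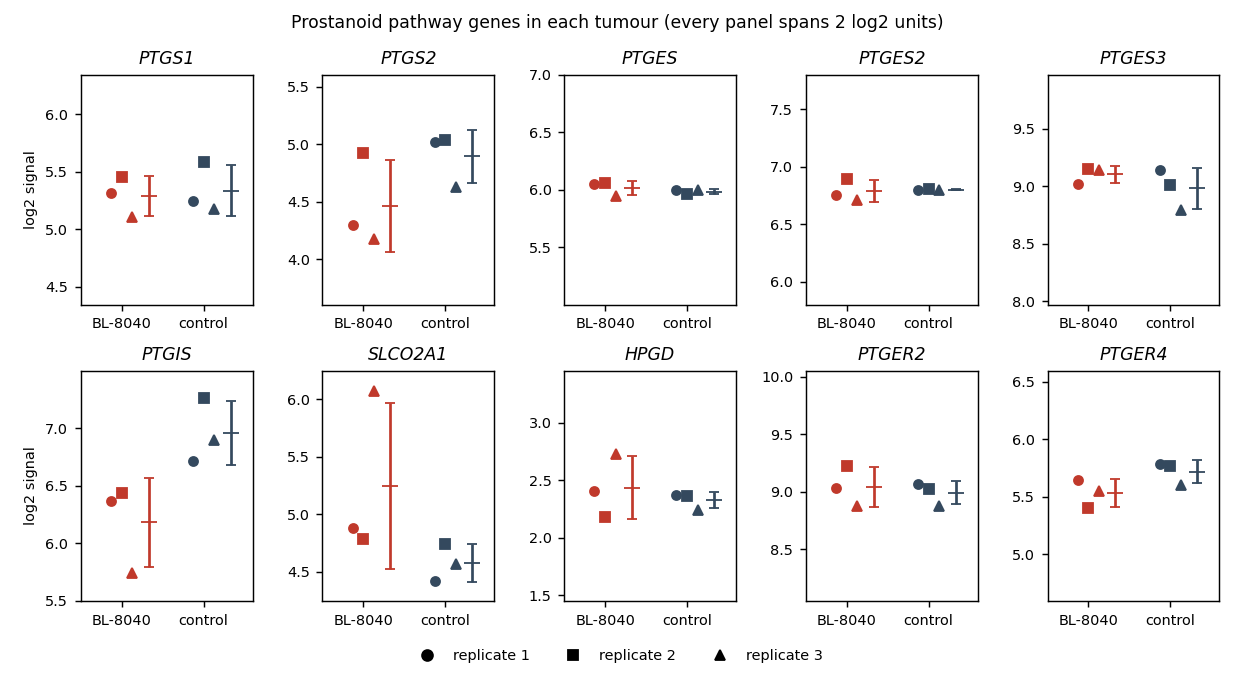
Log2 signal of the 10 prostanoid pathway genes in each tumour, BL-8040 in red and control in dark blue, with the replicate number given by the symbol and the mean and SD of each group (n = 3) as a bar beside the points. The 3 BL-8040 values lie below all controls for PTGIS and above all controls for SLCO2A1, and the groups overlap in the other 8 genes.

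Synthesis begins with the cyclooxygenases. PTGS2 encodes the inducible form, which cytokines and growth factors switch on. Its log2 signal was 4.30, 4.92 and 4.18 in the treated tumours of replicates 1, 2 and 3 and 5.02, 5.03 and 4.63 in the controls. This was at percentile 28.6 of signal over all genes. BL-8040 replicates 1 and 3 lay below every control, and BL-8040 replicate 2 lay among them. Mean and SD were 4.47 ± 0.40 in treated tumours and 4.90 ± 0.23 in control tumours (n = 3 each), a level 0.743 times that of the controls. The PTGS2 difference of -0.43 had a 95% interval from -0.86 to 0.00, with an unadjusted p of 0.0502 and an adjusted p of 0.644 (limma). By size it ranked 125 of 18417 genes, and its spread within groups was wider than that of 98.6% of genes. Without BL-8040 replicate 2 the PTGS2 difference was -0.66, and without BL-8040 replicate 3 it was -0.29.

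PTGS1, the form most tissues make at a steady level, showed no such separation. It was 5.31, 5.45 and 5.10 in treated tumours and 5.24, 5.59 and 5.18 in controls. The groups lay on top of each other, with both the highest control and the lowest treated value at the ends of a range of 0.48 log2 units. The PTGS1 difference was -0.05, with a 95% interval from -0.33 to 0.24 (adjusted p = 0.928, limma), and its sign turned without BL-8040 replicate 3 (0.05) or control replicate 2 (0.08).

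Prostaglandin E2 is made from the cyclooxygenase product by 3 enzymes of different structure. PTGES encodes the inducible microsomal synthase that works with PTGS2. It was 6.05, 6.06 and 5.95 in treated tumours and 5.997, 5.964 and 5.996 in controls. All 6 values fell within 0.11 log2 units, and only 6.45% of genes had as narrow a spread within groups. The PTGES difference of 0.04 had a 95% interval from 0.919- to 1.14-fold (adjusted p = 0.896, limma), so that a change of the size seen for PTGIS lies outside it.

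PTGES2 encodes the membrane-associated synthase of the Golgi. Its values were 6.75, 6.89 and 6.71 in treated tumours and 6.80, 6.81 and 6.80 in controls. The treated values lay on both sides of controls that spanned 0.01 log2 units. The difference of -0.02 had a 95% interval from 0.880- to 1.11-fold (adjusted p = 0.962, limma), and its sign turned under median centring and with BL-8040 replicate 1 or 3 left out.

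PTGES3 is the cytosolic synthase, better known as p23, a co-chaperone of HSP90. It was 9.02, 9.15 and 9.14 in treated tumours and 9.15, 9.01 and 8.79 in controls, and the groups overlapped. Mean and SD were 9.11 ± 0.07 in treated tumours and 8.98 ± 0.18 in control tumours (n = 3 each), a difference of 0.12 with an adjusted p of 0.745 (limma). That difference leaned on control replicate 3, the lowest array, and without it was 0.03, whereas without control replicate 1 it was 0.20.

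PTGIS encodes prostacyclin synthase, a cytochrome P450 of the endoplasmic reticulum that turns prostaglandin H2 into prostacyclin, a vessel-widening and platelet-inhibiting lipid. Its probe set, 8066925, read 6.37, 6.44 and 5.74 in treated tumours, against 6.72, 7.26 and 6.90 in controls. All 3 treated tumours lay below all 3 controls, with a gap of 0.28 log2 units between the highest treated and the lowest control value. Mean and SD were 6.18 ± 0.39 in treated tumours and 6.96 ± 0.28 in control tumours (n = 3 each), a level 0.583 times that of the controls. The difference of -0.78 ± 0.19 (SE) had a 95% interval from -1.22 to -0.34, or from 0.430 to 0.792 times the control level.

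In size this ranked 7 of 18417 genes and 4 among those lower after BL-8040, with an unadjusted limma p of 0.00320 and an adjusted p of 0.644. Differences this large are rare here: 0.58 log2 units, about 1.5-fold, was reached by 40 genes (0.217%). Of these, 23 (0.125% of all genes) had groups that did not overlap. PTGIS was known beforehand to stand out, so its rank, its p values and its place among these genes are a description. The exact permutation p of PTGIS was 0.1, two-sided, the smallest that 3 against 3 arrays can give. With each array left out in turn the PTGIS difference was largest, -0.91, without BL-8040 replicate 2 and smallest, -0.56, without BL-8040 replicate 3. The groups did not overlap under any of the 14 alternatives tried. Only quantile normalization and median centring change the values compared, and the other alternatives could not have made separate groups overlap. The unadjusted p stayed under 0.05 in those 14 alternatives, and the adjusted p lay between 0.461 and 0.896.

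**Figure D2:**
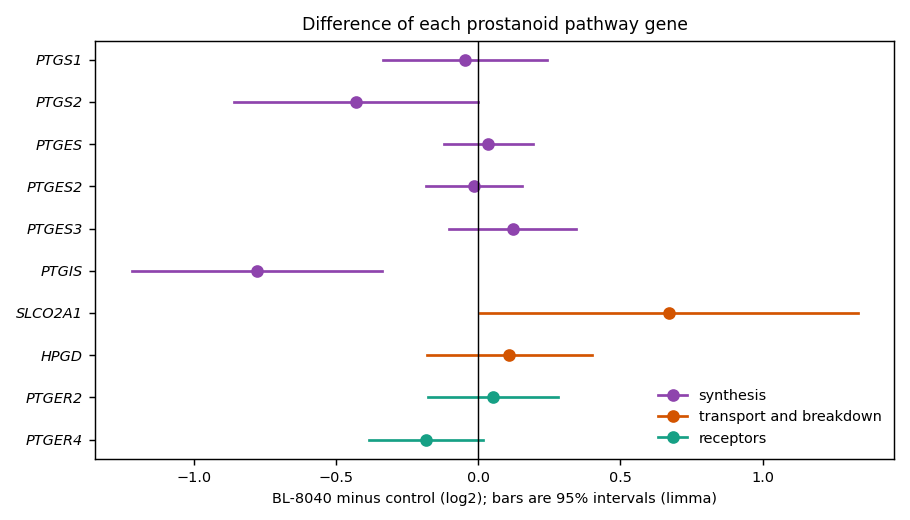
Difference in log2 signal, BL-8040 minus control, of each prostanoid pathway gene, with 95% intervals from limma and colours for the role in the pathway. The intervals of PTGIS (-1.22 to -0.34) and SLCO2A1 (0.01 to 1.34) lie to one side of 0, and those of the other 8 genes reach across it.

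On the side of transport and breakdown, SLCO2A1 encodes the prostaglandin transporter, an organic anion carrier that brings prostaglandins into the cell for oxidation and is known from vascular endothelium, lung and kidney. Its probe set, 8090823, read 4.88, 4.78 and 6.08 in treated tumours and 4.42, 4.75 and 4.57 in controls, at percentile 32.1 of signal. Every treated value was above every control, but BL-8040 replicate 2 exceeded control replicate 2 by only 0.04 log2 units. BL-8040 replicate 3 stood far above the rest. Mean and SD were 5.25 ± 0.72 in treated tumours and 4.58 ± 0.16 in control tumours (n = 3 each), a 1.59-fold level.

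The SLCO2A1 difference of 0.67 ± 0.29 (SE) had a 95% interval from 0.01 to 1.34, with an unadjusted p of 0.0480 and an adjusted p of 0.644 (limma). Its spread within groups was wider than that of 99.8% of genes. Without BL-8040 replicate 3 the difference of SLCO2A1 was 0.26, a value below that of all 6 arrays by over 1.5 times. With arrays weighted by their quality, it was 0.41. The unadjusted p was no longer under 0.05 in 5 of the 12 alternatives that kept this gene, namely array weights, the variance trend and leaving out any one control. The exact permutation p was 0.1, again the smallest possible.

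HPGD encodes the dehydrogenase that inactivates prostaglandins once they have been taken up. Its signal was 2.40, 2.18 and 2.72 in treated tumours and 2.37, 2.36 and 2.24 in controls, at percentile 1.77 of all genes. Both the highest and the lowest value belonged to treated tumours. No difference was detectable at this dim end of the array: it was 0.11, with an interval from 0.883- to 1.32-fold (adjusted p = 0.826, limma), and turned to -0.04 without BL-8040 replicate 3.

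The receptors EP2 and EP4 both couple to adenylyl cyclase. PTGER2, which encodes EP2, read 9.03, 9.22 and 8.88 in treated tumours and 9.07, 9.02 and 8.88 in controls, at percentile 93.7 of signal. The treated values enclosed those of the controls. Its difference of 0.05 had an interval from 0.886- to 1.22-fold (adjusted p = 0.891, limma), and the sign turned without BL-8040 replicate 2 (-0.04) and without control replicate 3 (0.00 after rounding).

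PTGER4, which encodes EP4, was 5.65, 5.40 and 5.55 in treated tumours and 5.78, 5.77 and 5.60 in controls. BL-8040 replicates 2 and 3 lay below all controls, while BL-8040 replicate 1 exceeded control replicate 3 by 0.05 log2 units. Mean and SD were 5.53 ± 0.12 in treated tumours and 5.72 ± 0.10 in control tumours (n = 3 each), or 0.880 times the control level. The PTGER4 difference of -0.18 had a 95% interval from -0.39 to 0.02 (adjusted p = 0.647, limma). Without BL-8040 replicate 2 it was -0.12, and in the other arrays left out it lay between -0.24 and -0.15.

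**Figure D3:**
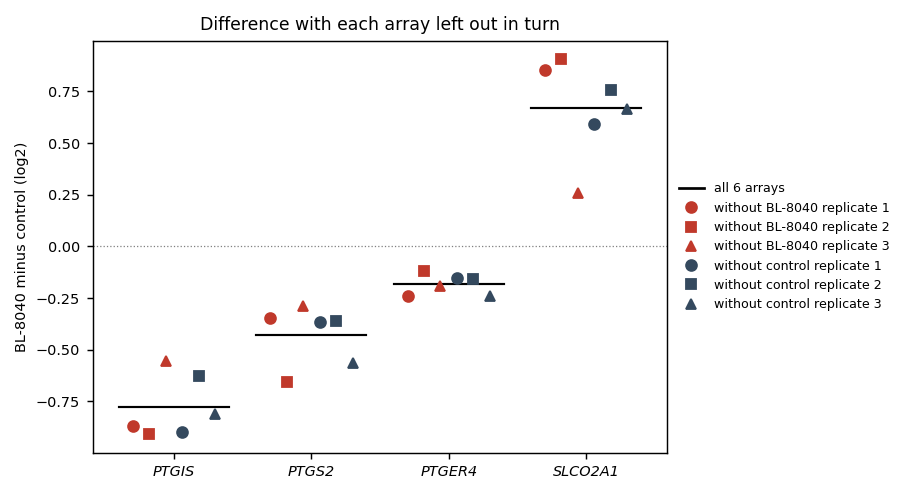
Difference in log2 signal, BL-8040 minus control, of the 4 pathway genes with the smallest p, with all 6 arrays (black line) and with each array left out in turn (red for a BL-8040 array, dark blue for a control array). All points keep the side of the black line relative to 0, and SLCO2A1 comes nearest to 0 without BL-8040 replicate 3 (0.26).

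The array of BL-8040 replicate 3 touched most of the pathway. It gave the highest or the lowest of the 6 values in 8 of the 10 genes, 2 highest and 6 lowest, against 46.8% of all genes (16.3% highest and 30.5% lowest). PTGIS, PTGS2, PTGS1, PTGES, PTGES2 and PTGER2 had their lowest value there, and SLCO2A1 and HPGD their highest. Across the 6 arrays PTGIS and PTGS2 had r = 0.76, SLCO2A1 and HPGD r = 0.85, and PTGIS and SLCO2A1 r = -0.81. These are descriptions over 6 tumours that share the split into groups and BL-8040 replicate 3, the array with the lowest median correlation to the others.

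In this array the summed markers of endothelial, smooth muscle and myeloid cells were highest and those of neuroblastoma cells lowest. The brightest genes weigh most in a sum: RGS5 and ACTA2 in the smooth muscle list and PTPRC in the myeloid list. Single endothelial, smooth muscle and myeloid markers were split there. EMCN, TEK, CLDN5, KDR, TAGLN, ACTA2, RGS5, MYH11, LYZ, PTPRC and ITGAM were highest. PECAM1, CDH5, VWF, NOTCH3 and AIF1 were lowest. The fibroblast sum lay within the range of the others. The mean of the fibroblast log2 values, each centred on its gene, was however highest in this array, at 0.17 against -0.12 to 0.04 in the others. The list was split, with COL1A1, COL1A2, COL3A1, FAP and PDGFRA highest in this array and DCN, PDGFRB and THY1 lowest. Of the 10 endothelial markers 4 stood higher and 6 lower in treated tumours, and their groups did not overlap in 1 higher and 3 lower genes, beside 4.93% and 9.05% of all genes. The summed linear signal of the list ranged from 930 to 1154 after BL-8040 and from 817 to 877 in controls. The sum is mostly EMCN, which encodes endomucin and was 1.27-fold higher (adjusted p = 0.644), whereas PECAM1, CDH5 and VWF lay below all controls in the treated tumours. In the mean of log2 values, which gives each marker the same weight, the endothelial list ran from -0.10 to 0.12 after BL-8040 and from -0.04 to 0.05 in controls. The 8 smooth muscle and pericyte markers (5 higher, 3 lower), from cells that normally make prostacyclin, summed to between 3597 and 4183 after BL-8040 and between 3567 and 3762 in controls. The 8 neuroblastoma markers (1 higher, 7 lower) summed to between 6240 and 8382 after BL-8040 and between 7445 and 8307 in controls, a sum made mostly of MYCN. In the mean of log2 values they ran from -0.52 to 0.13 in treated tumours and from -0.04 to 0.28 in controls, and the median of their differences was -0.23. BL-8040 replicate 3, at -0.52, held the lowest value of every marker of this list. It lay furthest down for TH, DBH and CHGA, at 7.53, 8.66 and 6.28 against control means of 9.08, 10.08 and 7.50. The other markers differed between the groups by -0.24 (PHOX2A) to 0.03 (MYCN). Fibroblast and myeloid markers stood higher for 6 of 10 in each list. The fibroblast sums were 4449 to 4792 after BL-8040 and 4373 to 4599 in controls, and the myeloid sums 539 to 599 after BL-8040 and 543 to 566 in controls. The only human cells put into the mice were of the injected line, so host vessel, fibroblast, muscle and myeloid cells are mouse cells. Whether their markers were read from mouse RNA bound by human probes or from the tumour cells was not tested. The part of either in the values of PTGIS and SLCO2A1 was not tested.

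**Figure D4:**
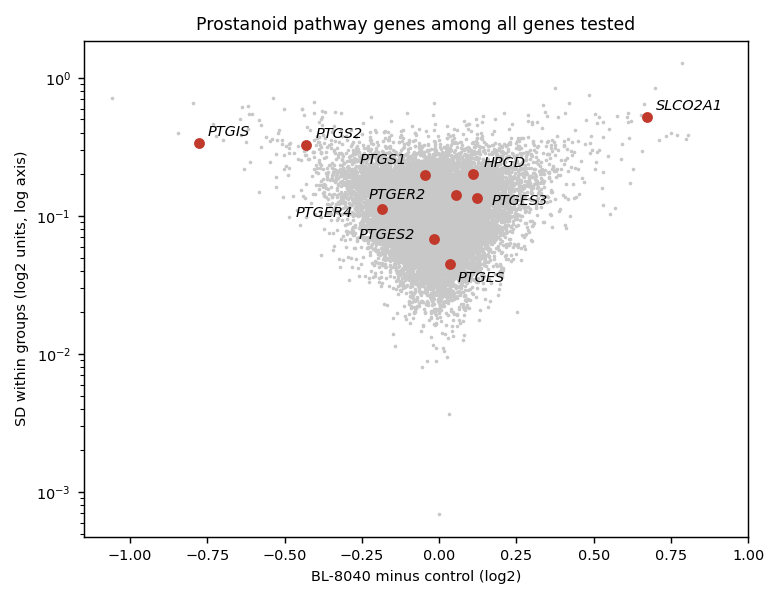
Difference in log2 signal, BL-8040 minus control, against the SD within groups (log axis) for all 18417 genes in grey and the prostanoid pathway genes in red. PTGIS, PTGS2 and SLCO2A1 lie at the edges of the cloud and among the genes with the widest spread, and the other 7 genes lie within 0.2 log2 units of 0.

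Genes whose pattern over the 6 arrays was most like that of PTGIS, among 2007 genes with an SD of at least 0.2, were OR1K1 (r = 0.992), GPR83 (r = 0.990) and SSTR2 (r = 0.989), and 47 genes reached r of at least 0.95. For SLCO2A1 they were TMEM47 (r = 0.996), HMCN2 (r = 0.996) and TMEFF2 (r = 0.993), with 36 genes at r of at least 0.95. With 6 arrays many genes reach such values, and the ranking describes these tumours only.

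Around the 10 genes, 8 lists of neighbouring genes held 76 measured genes, of which 26 stood higher and 50 lower after BL-8040. They mix lipid mediator genes with genes that respond to cyclic AMP and inducers of PTGS2 and PTGES. None passed over all genes. An unadjusted p under 0.05 was reached by 5 of them, all lower, or 6.58% against 7.72% of all genes. The groups did not overlap in 2 higher and 4 lower genes, or 7.89% against 14.0% of all genes. Their median difference was -0.05 log2 units, beside -0.02 over all genes, of which 58.5% stood lower.

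Upstream of the cyclooxygenases, 10 of 11 genes of arachidonate release stood lower, with a median difference of -0.09 that shrank to -0.05 under quantile normalization. PLA2G6, a calcium-independent phospholipase, read 6.32, 6.39 and 6.40 in treated tumours and 6.43, 6.59 and 6.70 in controls, without overlap, at 0.870 times the control level (adjusted p = 0.644, limma). PLA2G4C, a cytosolic phospholipase, stood at 0.882 times with overlapping groups, a difference of -0.18 that was -0.12 without BL-8040 replicate 3. Neither passed the test.

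Of the 6 other prostanoid synthases and reductases, 3 stood higher and 3 lower, with a median difference of 0.00. CBR1, a carbonyl reductase that can convert prostaglandin E2, differed by 0.10 and PRXL2B, a prostamide and prostaglandin F synthase, by -0.08, with limma adjusted p of 0.777 and 0.780. With an array left out these ran from 0.03 (without BL-8040 replicate 2) to 0.18 for CBR1 and from -0.15 to -0.03 (without BL-8040 replicate 1) for PRXL2B, both largest without BL-8040 replicate 3.

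Other genes of prostaglandin transport and breakdown stood lower for 6 of 8 members. Their median was -0.14, and -0.07 without BL-8040 replicate 3. SLCO4A1 and SLCO3A1, organic anion carriers of the same family as SLCO2A1, both pointed the other way from it. SLCO4A1 read 7.17, 7.50 and 7.08 in treated tumours and 7.46, 7.69 and 7.55 in controls, at 0.800 times the control level (adjusted p = 0.644). BL-8040 replicate 2 lay within the range of the controls. SLCO3A1 stood at 0.848 times, with an adjusted p of 0.660 (limma), and its difference of -0.24 was -0.11 without BL-8040 replicate 3 but -0.36 without replicate 1 of that group.

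Among the other prostanoid receptors, 3 stood higher and 6 lower, with a median of -0.07. TBXA2R, the thromboxane receptor gene, was 4.78, 4.61 and 4.91 in treated tumours and 4.90, 5.02 and 5.10 in controls. BL-8040 replicate 3 lay just above control replicate 1, and the level was 0.847 times that of controls (adjusted p = 0.644). PTGDR, a prostaglandin D2 receptor gene, stood at 0.879 times (adjusted p = 0.652), and its difference of -0.19 was -0.10 without control replicate 1. PTGIR, the prostacyclin receptor gene, was looked at because its ligand is the product of PTGIS, and was chosen after its values were seen. It averaged 6.37 ± 0.17 in treated tumours and 6.37 ± 0.20 in control tumours (SD, n = 3 each), a difference of 0.00 log2 units.

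**Figure D5:**
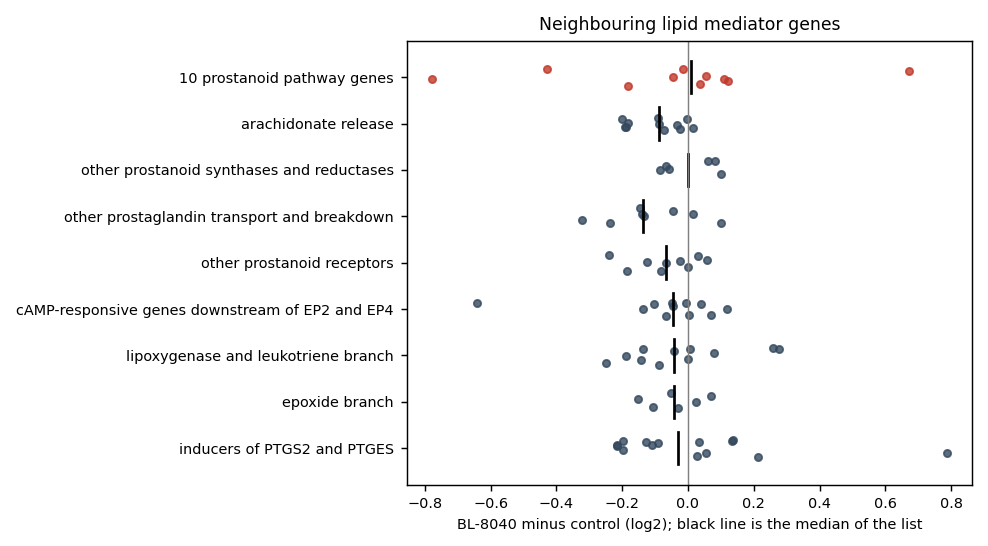
Difference in log2 signal, BL-8040 minus control, of the 10 prostanoid pathway genes (red) and of each measured gene in the 8 neighbouring lists (dark blue), with the median of each list as a black line. List medians lie between -0.14 and 0.01, and single genes beyond 0.5 log2 units are PTGIS, SLCO2A1, VEGFA and EGR1.

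Transcripts that respond to cyclic AMP, the messenger of EP2 and EP4, split into 4 higher and 7 lower, and 0 of 11 had an unadjusted p under 0.05. VEGFA, the vascular growth factor gene, which low oxygen also induces, read 9.81, 10.36 and 9.02 in treated tumours and 10.23, 10.66 and 10.24 in controls. BL-8040 replicate 2 lay among the controls, and the level was 0.640 times (adjusted p = 0.644). The VEGFA difference of -0.64 was -0.29 without BL-8040 replicate 3. PDE4B, a phosphodiesterase gene that cyclic AMP switches on, stood at 0.910 times with an adjusted p of 0.700 (limma), and its difference of -0.14 was -0.05 without BL-8040 replicate 3.

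Inducers of PTGS2 and PTGES were even, with 7 higher and 7 lower. EGR1, chosen after its values were seen, had the largest difference, 0.79 (adjusted p = 0.766, limma). It read 7.67, 10.70 and 7.58 in treated tumours and 7.53, 8.24 and 7.82 in controls. Only BL-8040 replicate 2 lay above the controls. An unadjusted p under 0.05 was reached by 2 of the 14, both lower (7.72% of all genes). The groups did not overlap in HIF1A (higher) and LIF (lower), or 14.3% against 14.0% of all genes. IL1A, the interleukin 1 alpha gene, and LIF, a cytokine gene of the interleukin 6 family, stood at 0.871 times the control level each (adjusted p = 0.644). Both were dim, at percentiles 8.01 and 20.8. The lipoxygenase and leukotriene branch had 4 higher and 7 lower genes. ALOX12B, a skin lipoxygenase gene, stood at 0.842 times and OXER1, a receptor for oxidised eicosanoids, at 0.910 times, with adjusted p of 0.646 and 0.652 (limma). The ALOX12B difference of -0.25 was -0.14 without control replicate 2. OXER1 read 5.41, 5.39 and 5.34 in treated tumours and 5.48, 5.52 and 5.55 in controls, without overlap. The cysteinyl leukotriene receptor genes CYSLTR1 and CYSLTR2, chosen after their values were seen, stood 1.21- and 1.197-fold higher (adjusted p = 0.658 each), CYSLTR2 without overlap. Their differences of 0.28 and 0.26 were 0.10 and 0.08 without BL-8040 replicate 3. In the epoxide branch list, made of cytochrome P450 and epoxide hydrolase genes, 2 of 6 genes stood higher and 4 lower. CYP2C8 and CYP4A11, both cytochrome P450 genes of fatty acid oxidation, stood at 0.929 and 0.900 times with adjusted p of 0.734 and 0.755. The CYP4A11 difference of -0.15 was 0.00 without control replicate 2, and that of CYP2C8 went to -0.07 without control replicate 3, against -0.11 with all arrays.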

How the data were processed

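Per the design text, tumour RNA of 6 mice was hybridised to Affymetrix Human Gene 1.0 ST arrays. The authors deposited 1 table of log2 values, 1 column per array, whose scale was read from the values. Partek 6.6 appears in the submitters' processing notes, without its settings for background, normalization or summarization. With no scanner files used there was no detection call, and the number of arrays limits the precision (median half-width of the 95% interval 0.197 log2 units). No positions or human sequences are printed.

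Of 33297 probe sets, 19460 had 1 symbol in the platform annotation, 1754 several and 12083 none there. The brightest per gene was kept (18417 genes). Groups and replicate numbers came from sample titles. limma 3.58.1 (lmFit, eBayes; R 4.3.3) compared BL-8040 with control by a two-sided test that had no replicate block, with Benjamini-Hochberg adjustment over all genes; differences are BL-8040 minus control. Replicates are taken as separate mice, as the design text says.

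The 10 genes and all lists were chosen with earlier results of these data known. Named from each of the 8 neighbouring lists were the 2 measured genes with the smallest p and any that differed by at least 0.58 with no overlap of the groups (none did); 76 of 89 listed symbols were measured (older symbols included). Marker lists covered endothelial, fibroblast, smooth muscle and pericyte, myeloid and neuroblastoma cells. No list was tested as a set.

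On simulated arrays for this comparison over 18417 genes, 6% of 50 genes shifted by 0.3 log2 units were called, 64% of 50 at a shift of 0.58, 92% of 50 at 1 and 100% of 50 at 2, beside 9 false calls. The shifted genes were drawn at random. PTGIS, PTGS2 and SLCO2A1 had a spread within groups at percentiles 98.8, 98.6 and 99.8, so these shares do not describe them. Alternatives were array weights, the replicate block, robust moderation with a variance trend, quantile normalization, median centring, averaging probe sets, an adjusted p under 0.1, leaving out each array, and keeping genes above log2 6 or the median signal. Deviations of same-numbered arrays from their group means correlated at -0.04, 0.02 and 0.08, so the numbers were not taken to pair the mice.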

Additional observations from a re-analysis of the deposited data

How the results depend on the processing

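No gene was called under any alternative, including an adjusted p under 0.1. PTGIS and SLCO2A1 had groups without overlap in every alternative that kept them. Most of these had to give that result, since only quantile normalization and median centring change the values compared. With all arrays the gap between the groups of SLCO2A1 was 0.04 log2 units. Filters on dim genes left 4 (median signal) or 5 (log2 6) of the 10 genes. Both filters removed SLCO2A1 and PTGS2. Under each filter 1, PTGIS, had an unadjusted p under 0.05, beside 7.75% (median signal) and 7.77% (log2 6) of the genes kept. Under each 1, again PTGIS, had groups without overlap, beside 14.7% of the genes kept. Leaving out 1 array gave between 1 and 3 genes at an unadjusted p under 0.05, beside 4.91% to 9.98% of all genes. It gave between 2 and 5 genes without overlap, beside 21.5% to 29.5% of all genes. There were 5 without BL-8040 replicate 2 and 4 without control replicate 3, where 25.0% and 23.0% of all genes did not overlap. The sign turned for PTGES2 under median centring (0.00613) and for PTGIR with array weights (-0.0455). It also turned with an array left out for 5 genes, whose differences ran from -0.128 to 0.0797 for PTGS1, from -0.0692 to 0.0225 for PTGES2, from -0.0355 to 0.238 for HPGD, from -0.0976 to 0.111 for PTGIR and from -0.0361 to 0.136 for PTGER2; the cause was not tested. With the replicate block, 0 genes were called, 3 of the 10 genes (PTGS2 besides PTGIS and SLCO2A1) had an unadjusted p under 0.05 (8.08% of all genes), and the smallest adjusted p of the 10 was 0.613; not every array deviated most like its own number. Genes at an unadjusted p under 0.05 numbered between 905 and 1838 with 1 array left out. Of the 76 neighbouring genes 5 did so with all arrays (7.72% of all genes), 2 after quantile normalization (7.55%), 2 after median centring (7.37%), 8 with array weights (9.27%), 8 with the replicate block, and between 1 (without control replicate 2, 4.91%) and 9 (without BL-8040 replicate 2, 8.06%) with an array left out. Signal over background was not measured, which limits what can be read from dim genes such as HPGD. The same limit holds for SLCO2A1 and PTGS2, which lay below the median signal.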
